A study of Mus musculus with 12 samples.

Results

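The genes described here are the 31 SR and hnRNP splicing factor genes of primary mouse motoneuron cultures, 11 named Srsf and 20 named Hnrnp. They were taken by symbol, as every gene whose name is Srsf or Hnrnp followed by digits or small letters, out of 39174 gene identifiers. This rule uses no expression value, but these genes and the lists used below were chosen with earlier results of these data known. Cultures came from FVB mice of 2 genotypes that both carry the human SMN2 transgene. Controls were Smn+/+;SMN2, and the spinal muscular atrophy model (SMA) was Smn-/-;SMN2, which lacks the mouse survival motor neuron gene. Cultures of each genotype either received no drug or R-Roscovitine at 0.5 µM, and each of the 4 groups holds 3 RNA sequencing libraries. R-Roscovitine inhibits cyclin-dependent kinases and also acts on voltage-gated calcium channels. The series title names motoneuron function under R-Roscovitine as its subject. The age of the embryos or animals, the time in culture and the time of treatment were not given in the sources used, and nothing in the labels says whether the 3 libraries of a group came from separate animals, so p-values measure the spread between these libraries only.

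SR proteins carry RNA recognition motifs and a tail rich in arginine and serine, bind mostly exonic enhancers and help the spliceosome to use nearby splice sites. Their tails are phosphorylated by the SRPK and CLK kinases, which govern their import into the nucleus and their activity. The hnRNPs coat nascent transcripts, often bind silencers and exclude exons, and several shuttle to the cytoplasm with mRNA. Both families matter in spinal muscular atrophy because SRSF1 promotes, and hnRNP A1 and hnRNP A2/B1 repress, inclusion of exon 7 of SMN2, and because hnRNP R binds the SMN protein and travels with β-actin mRNA in motor axons. Gene levels of these factors do not measure splicing, and no splicing value was used here.

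Many hnRNP and SR genes have processed copies elsewhere in the mouse genome, so the sequences are shown first, because they decide which values can be assigned to a gene. In a search of GENCODE M21 transcripts (GRCm38), 12 of the 31 genes had at least 1 copy in the expression tables that matched their coding sequence at 90% identity or more over at least 300 bases. Stretches of 90 bases from 4 such pairs follow, 5′ to 3′ on the sense strand, the gene's coding sequence first and the copy's transcript second. They show how little separates the transcripts of a gene and its copy. Capitals mark the bases at which the pair differs.

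Hnrnpa1: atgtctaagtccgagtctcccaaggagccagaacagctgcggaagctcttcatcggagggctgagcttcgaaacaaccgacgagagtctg

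Gm10052: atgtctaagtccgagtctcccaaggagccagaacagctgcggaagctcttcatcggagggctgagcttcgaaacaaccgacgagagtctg

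Hnrnpk: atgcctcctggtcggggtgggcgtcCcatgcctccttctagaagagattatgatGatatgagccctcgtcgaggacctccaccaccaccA

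Gm7964: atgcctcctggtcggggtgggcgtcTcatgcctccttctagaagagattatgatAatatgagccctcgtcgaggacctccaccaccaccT

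Srsf3: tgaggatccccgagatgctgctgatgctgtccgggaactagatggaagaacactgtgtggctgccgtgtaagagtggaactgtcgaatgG

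Gm9761: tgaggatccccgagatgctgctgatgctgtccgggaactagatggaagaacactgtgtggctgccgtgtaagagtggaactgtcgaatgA

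Srsf10: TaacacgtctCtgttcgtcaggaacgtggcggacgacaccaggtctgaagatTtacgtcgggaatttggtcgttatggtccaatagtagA

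Gm5446: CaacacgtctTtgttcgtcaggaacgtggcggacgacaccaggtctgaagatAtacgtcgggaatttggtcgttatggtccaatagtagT

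Hnrnpa1 (chr15:103240432-103244955, plus strand) and its processed copy Gm10052 (chr9:123689230-123690192, minus strand) do not differ in this window, nor anywhere in the 752 bases of their longest match. Hnrnpk (chr13:58391142-58403343, minus strand) and Gm7964 (chr7:83755904-83757356, plus strand) differ at 3 of the 90 bases shown. Srsf3 (chr17:29032673-29043366, plus strand) and Gm9761 (chr3:116561085-116561426, minus strand) differ at 1 base of the window, and Srsf10 (chr4:135855747-135869908, plus strand) and Gm5446 (chr13:19995021-19995803, minus strand) at 4.

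Some of the copies are listed in the tables at levels close to those of their genes. Of the 52 copies listed, 28 were high enough to be tested. Levels are FPKM, fragment numbers divided by transcript length and library depth, so that levels of different genes can be set side by side. Gm7964 stood at a mean of 343.8 FPKM over the 12 libraries against 393.9 FPKM for Hnrnpk itself. Gm10052 stood at 56.0 FPKM against 62.6 FPKM for Hnrnpa1, and the summed copies of Hnrnpa1, 9 in number, reached 153 FPKM, or 244% of the gene's own level. The summed copies also exceeded the gene's own level for Hnrnpa3 (144%), Srsf3 (132%), Srsf5 (122%) and Hnrnpf (109%). They reached 87.3% for Hnrnpk, 70.0% for Hnrnpc and 59.0% for Srsf10. Copies of the other 4 genes, Hnrnph2, Hnrnpdl, Hnrnpa2b1 and Srsf7, stayed at 26.0% or less. The sources used here do not say how fragments that match several places were assigned, so the level of a gene with such copies is uncertain. The FPKM of a copy is divided by the copy's own length, so it does not give the size of that uncertainty. The other 19 genes, among them Srsf1, Srsf2, Srsf12, Hnrnpl, Hnrnpm, Hnrnpr and Hnrnpu, had no copy of this kind in the tables.

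**Figure D1:**
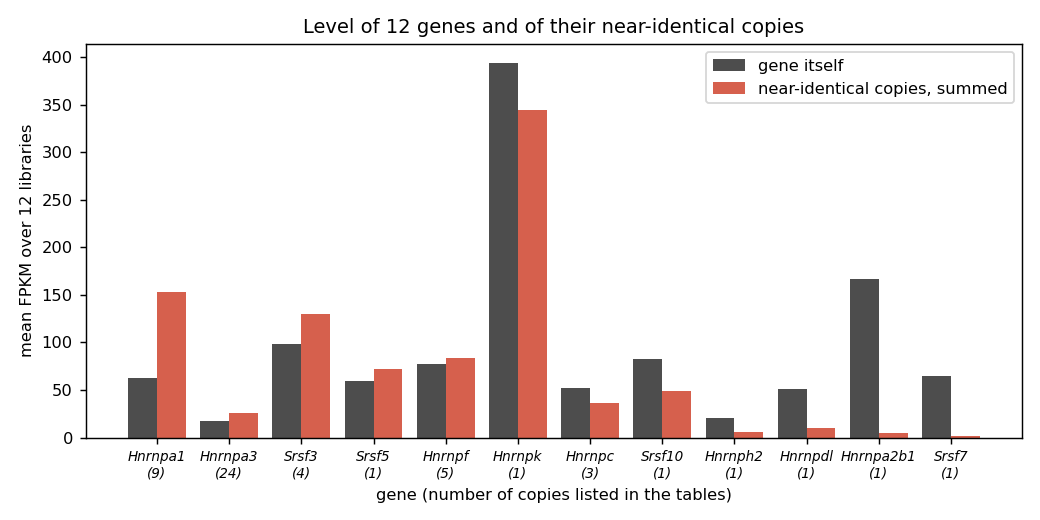
Mean FPKM over 12 libraries of the 12 genes with near-identical copies in the tables (dark bars) and of their copies summed (red bars), ordered by the ratio of the bars, with the number of copies under each name. The red bar is the taller one for Hnrnpa1, Hnrnpa3, Srsf3, Srsf5 and Hnrnpf, and reaches 87.3% of the dark bar for Hnrnpk.

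All 31 genes were expressed in every library. The deposited tables hold FPKM sums of 664636 to 738982 per library, and the SR and hnRNP genes took 0.351% to 0.444% of that sum. Cufflinks' own interval covers counting and assignment error only; for these genes its bounds lay a median of 4.68% to 5.41%, by library, away from the value. As a check of the labels, Smn1 stood at 6.11 to 8.58 FPKM in untreated SMA and 30.9 to 51.2 FPKM in untreated control libraries, and at 5.04 to 7.35 against 38.2 to 45.1 FPKM with R-Roscovitine (exact permutation test, p = 0.1 in each, the smallest that 3 against 3 libraries allow); reads of the human SMN2 transgene may be counted in it. Of 9 motoneuron genes in the tables, 6 stayed under 1 FPKM in all 12 libraries: Chat, Mnx1, Isl1, Isl2, Lhx3 and Slc5a7. Chat was listed at 0 in 9 libraries. The others were Prph at 0.320 to 1.71 FPKM, Ret at 1.38 to 3.35 FPKM and Chodl at 3.53 to 18.1 FPKM. Markers of other cell types differed between the genotypes: the summed level of 10 astroglial genes was 447 to 1025 FPKM in untreated SMA and 237 to 333 FPKM in untreated control libraries, and that of 10 pan-neuronal genes 611 to 663 against 715 to 1038 FPKM. Fabp7 weighed most in the astroglial sum, at 165 to 854 FPKM over the 12 libraries, while Gfap reached at most 3.25 FPKM. In such mixed cultures fewer cells of a type and less RNA per cell cannot be told apart.

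Hnrnpk, a poly(C)-binding protein of transcription, splicing and translation, was the highest of the 31 genes at 361 to 444 FPKM. Hnrnpl, a binder of CA-rich RNA, followed at 201 to 269 FPKM, and Hnrnph1, a binder of G-rich RNA, at 159 to 227 FPKM. Every library of Hnrnpk lay above every library of Hnrnpl, while Hnrnpl and Hnrnph1 overlapped between 201 and 227 FPKM. Over the whole order by mean level, 28 of 30 neighbouring pairs overlapped; besides Hnrnpk and Hnrnpl the exception was Hnrnpdl above Hnrnpll. Hnrnpa2b1, known for carrying RNA into dendrites and axons, stood at a mean of 166 FPKM, and Hnrnpab at 138 FPKM.

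Srsf2, which also acts in transcription elongation, was the highest SR gene with a mean of 134 FPKM. Srsf1 followed at 101 FPKM, Srsf3, the smallest of the SR proteins, at 98.8 FPKM, Srsf11 at 85.6 FPKM and Srsf10, whose dephosphorylated form represses splicing, at 82.4 FPKM. Srsf6 stood at 72.2 FPKM, Srsf7 at 65.2 FPKM and Srsf5 at 59.1 FPKM. The ranges of Srsf1, Srsf3, Srsf11 and Srsf10 over the 12 libraries all overlapped. Srsf9 at 32.5 FPKM, Srsf4 at 28.1 FPKM and Srsf12 at 22.2 FPKM closed the list. Srsf12, a less studied relative of Srsf10 that antagonises other SR proteins in splicing, was the lowest SR gene.

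Among the hnRNPs, Hnrnpm stood at a mean of 119 FPKM, Hnrnpr at 109 FPKM and Hnrnpu, the scaffold attachment protein of chromatin, at 107 FPKM. Hnrnpd at 91.0 FPKM and its paralog Hnrnpdl at 51.3 FPKM are binders of AU-rich RNA, and lie 54.6 kb apart on chromosome 5. Hnrnpf stood at 77.2 FPKM, Hnrnpa1 at 62.6 FPKM, Hnrnpul1 at 61.7 FPKM and Hnrnpc, which binds uridine tracts in introns, at 51.9 FPKM. Below them came Hnrnpll at 33.5 FPKM, Hnrnpa0 at 33.2 FPKM, Hnrnph2 at 21.1 FPKM, Hnrnpul2 at 17.8 FPKM and Hnrnpa3 at 17.6 FPKM. Hnrnph3, at 7.84 to 13.5 FPKM, was the lowest of all 31 genes.

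**Figure D2:**
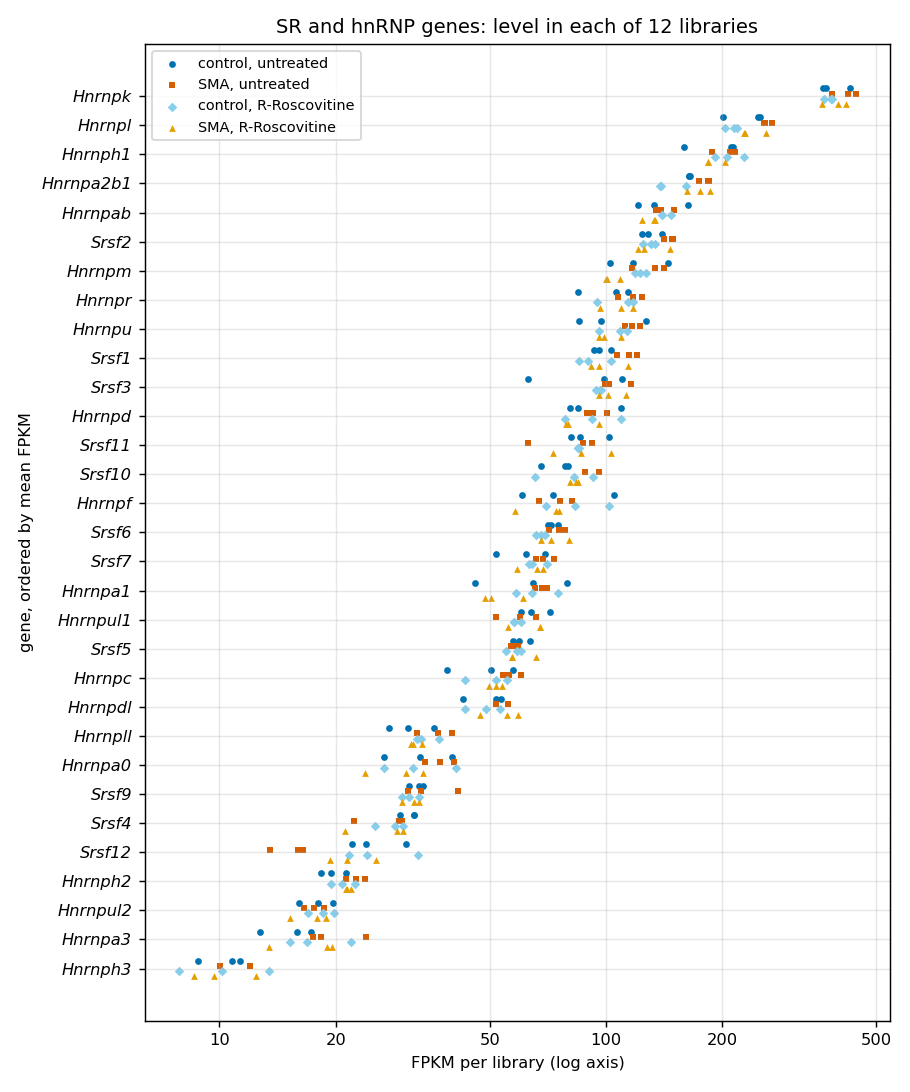
FPKM of each of the 31 genes in each of the 12 libraries on a log axis, genes ordered by their mean, with colour and shape giving the group. Levels run from Hnrnph3 at 7.84 to 13.5 FPKM to Hnrnpk at 361 to 444 FPKM, and the untreated SMA libraries of Srsf12 stand apart to the left of its other libraries.

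Levels of the family were steady across libraries. The median coefficient of variation over the 12 libraries was 10.7% for the 31 genes and 17.7% for all 14982 genes tested. Among the 7451 tested genes at or above the mean level of Hnrnph3 it was 14.4%. Their median level was 27.4 FPKM against 72.2 FPKM for the 31 genes, so the 2 sets are not matched by level. Srsf5 (4.69%), Srsf6 (6.29%) and Hnrnpk (6.79%) varied least of the 31, and Srsf12 (24.2%), Hnrnpa3 (19.7%) and Hnrnpf (17.6%) most. Hnrnpa3 and Hnrnpf are among the genes whose copies exceed their own level, but so is Srsf5 (122%), the least variable gene. The copy of Hnrnpk reached 87.3% of its level. Srsf12 and Srsf6 had no copy.

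Gene FPKM pools the isoforms of a gene, and SR and hnRNP genes are known to limit their own expression by splicing in a poison exon that sends the transcript to nonsense-mediated decay. GENCODE M21 annotates a transcript of the nonsense-mediated decay type for 19 of the 31 genes (61.3%), 9 of the 11 SR genes and 10 of the 20 hnRNP genes. Whether these transcripts hold a poison exon was not checked. Of the 12675 protein-coding genes tested, 28.4% have a transcript of that type. A transcript with a retained intron is annotated for 22 of the 31 genes (71.0%) and for 58.4% of those protein-coding genes. The 31 genes also have more annotated transcripts, a median of 7 against 5, which gives more room for either type. The gene values below do not tell a shift between productive and decaying isoforms from other changes in level. Beside Hnrnpd and Hnrnpdl, 3 more pairs of these genes lie within 500000 bases of each other: Hnrnpll and Srsf7 are 137.8 kb apart on chromosome 17, Hnrnpa0 and Hnrnpk 262.6 kb on chromosome 13, and Srsf10 and Hnrnpr 441.0 kb on chromosome 4. The 31 genes lie on 16 chromosomes.

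The first comparison asked how untreated SMA cultures differ from untreated controls. Most SR and hnRNP genes were a little higher in SMA: 25 of the 31 had a positive log2 difference, 18 of the 20 hnRNP genes and 7 of the 11 SR genes, with a median of 0.17 log2 units over the 31. Of all genes tested, 49.0% were higher, with a median of -0.01. No gene of the 31 passed the test (limma on log2(scaled FPKM + 1) over all genes, Benjamini-Hochberg adjusted p under 0.05), where 0.00667% of all genes did, a single gene, which is Smn1. At an unadjusted p under 0.05 there were 3 of the 31, Srsf12, Srsf10 and Srsf1, a share below the 14.1% of all genes. Percent differences given from this fit are those of scaled FPKM + 1, not of FPKM. Like the fold changes on this scale, they understate those of low genes because of the pseudocount of 1 FPKM.

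Srsf12 (chr4:33208991-33233340, plus strand) went the other way and had the largest difference of the 31. Its levels were 30.3, 22.0 and 23.9 FPKM in the untreated control libraries and 13.5, 16.0 and 16.4 FPKM in the untreated SMA libraries. All 3 SMA libraries lay below all controls. The log2 difference was -0.65 ± 0.16 (SE, 3 libraries against 3), or -36.1%, with a limma adjusted p of 0.217. Over 23 alternative settings the difference stayed between -0.72 and -0.51 and the adjusted p between 0.0463 and 0.523, under 0.05 only where libraries were weighted by quality.

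Srsf10 measured 79.6, 67.9 and 78.3 FPKM in untreated controls and 88.2, 96.0 and 88.5 FPKM in untreated SMA. Every SMA library was above every control, with a log2 difference of 0.31 ± 0.12 and a limma adjusted p of 0.291. Its copy Gm5446, shown above with its 4 differing bases, leaves this value uncertain; with the copy's FPKM added the difference was 0.28. Srsf1 (chr11:88047373-88053755, plus strand), the activator of SMN2 exon 7, measured 102.9, 93.3 and 96.1 FPKM in untreated controls and 114.5, 120.1 and 107.1 FPKM in untreated SMA. Here too the groups did not overlap, with a log2 difference of 0.27 ± 0.11 and a limma adjusted p of 0.325.

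Hnrnpa1 and Hnrnpa2b1 encode the factors known to repress SMN2 exon 7. Hnrnpa1 measured 45.7, 64.6 and 79.1 FPKM in untreated controls and 70.3, 68.5 and 65.6 FPKM in untreated SMA. The controls spanned the SMA libraries on both sides, and the log2 difference of 0.18 ± 0.18 became 0.05 with the copies added. Hnrnpa2b1 (chr6:51460434-51469894, minus strand) measured 163.8, 164.1 and 165.2 FPKM in untreated controls and 183.5, 173.6 and 184.3 FPKM in untreated SMA. Its groups did not overlap, at a log2 difference of 0.18 ± 0.10 and a limma adjusted p of 0.437. Hnrnpr, the binding partner of SMN, measured 114.0, 84.4 and 106.4 FPKM against 124.3, 107.6 and 117.8 FPKM, overlapping, at 0.25 ± 0.13.

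On scaled values, 8 of the 31 genes were higher in every untreated SMA library than in any untreated control, where 9.77% of all genes were: Hnrnpa2b1, Hnrnpl, Hnrnpa3, Hnrnph2, Srsf1, Srsf2, Srsf6 and Srsf10. On the deposited FPKM Hnrnph2 and Srsf6 overlapped. In the other direction only Srsf12 was lower in every SMA library, where 10.1% of all genes were. Hnrnpl (chr7:28808541-28822266, plus strand) stood at 249.9, 201.4 and 247.0 FPKM in untreated controls and 257.9, 268.9 and 256.4 FPKM in untreated SMA, 0.21 ± 0.10 on the log2 scale. After Srsf12, the lowest unadjusted p among the lower genes were those of Srsf4 at -0.16 and Hnrnpul1 at -0.10.

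The median difference of the 31 genes moved with single libraries. Control library 1 of the untreated cultures was the lowest of all 12 libraries for 15 of the 31 genes, such as Srsf3 at 62.9 FPKM where the other libraries were at 94.1 to 116.3 FPKM. SMA library 1 of the untreated cultures was the highest for 11. Without that control library the median difference was 0.10 in place of 0.17. Markers of astroglia and neural progenitors moved with the genotype as well: 8 of 9 tested astroglial genes were higher in untreated SMA (median 1.12 log2 units) and 8 of 10 progenitor genes (0.82), as were 8 of 10 proliferation genes (0.11), while 0 of 10 pan-neuronal genes were higher (median -0.37). Their part in the SR and hnRNP differences was not tested.

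**Figure D3:**
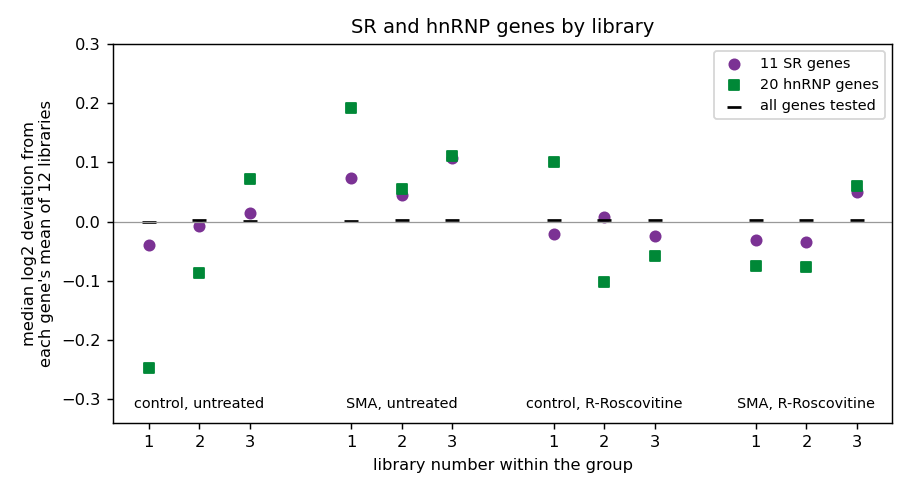
Median log2 deviation of the 11 SR genes (circles), the 20 hnRNP genes (squares) and all tested genes (dashes) from each gene's own mean of 12 libraries, for each library by group. The hnRNP median is lowest in untreated control library 1 (-0.25) and highest in untreated SMA library 1 (0.19), and all-gene medians lie at 0 within 0.01.

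In cultures treated with R-Roscovitine the genotypes were compared again. The 31 genes were split evenly, 16 higher and 15 lower in SMA, around a median of 0.00 log2 units (-0.05 without treated SMA library 3, 0.04 without treated SMA library 1); of all genes tested 47.0% were higher. None of the 31 passed the limma test at an adjusted p under 0.05, and 0.00667% of all genes did, again Smn1 alone. At an unadjusted p under 0.05 there was 1 of the 31, Hnrnpa2b1, against 13.0% of all genes. The hnRNP genes gave 8 of 20 higher in these libraries and the SR genes 8 of 11.

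Hnrnpa2b1 measured 138.2, 138.6 and 160.7 FPKM in treated controls and 175.6, 161.8 and 186.3 FPKM in treated SMA cultures. The groups did not overlap, as in the untreated cultures, and the log2 difference was 0.28 ± 0.10 with a limma adjusted p of 0.289. Hnrnpl measured 202.8, 214.2 and 218.7 FPKM against 229.4, 228.0 and 260.1 FPKM, also without overlap, at 0.19 ± 0.10. The third by p was Hnrnpdl, at 0.17.

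Hnrnpm (chr17:33646233-33686860, minus strand), a regulator of alternative splicing, was lower in every treated SMA library, at 100.7, 99.997 and 108.5 FPKM, than in the treated controls at 127.0, 119.0 and 122.3 FPKM, with a log2 difference of -0.23 ± 0.13. Hnrnpab, a relative of the A and B hnRNPs, was the other gene lower without overlap, at 124.3, 132.9 and 134.1 FPKM against 139.6, 140.0 and 147.5 FPKM. These 2 of 31 compare with 7.99% of all genes, and the 2 higher ones, Hnrnpa2b1 and Hnrnpl, with 9.55%. Hnrnpa1 was at -0.29 ± 0.18 and Hnrnpf at -0.27 ± 0.19. Srsf12 measured 32.7, 21.7 and 24.1 FPKM in treated controls and 21.3, 25.5 and 19.3 FPKM in treated SMA cultures. The groups overlapped, and its difference of -0.21 ± 0.16 had a 95% interval from -0.56 to 0.14.

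Averaged over both treatments, with 6 libraries of each genotype, 22 of the 31 genes were higher in SMA (median 0.09), against 48.3% of all genes. None passed the adjusted threshold in limma, where 4.83% of all genes did, 723 in number, 454 higher and 269 lower. That number ranged from 6, without untreated SMA library 3 or without treated SMA library 1, to 1363, without treated SMA library 2. It was 1 when the treated and untreated libraries of one number, which deviate together, were first averaged. The median of the 31 genes lay between 0.05, without untreated control library 1, and 0.12, without untreated control library 3. At an unadjusted p under 0.05 there were 5 of the 31, against 23.2% of all genes. The nearest to the threshold was Srsf12, at -0.43 ± 0.12 (-25.7%) with a limma adjusted p of 0.0520. Over 24 alternative settings its adjusted p lay between 0.0290 and 0.222, and it was under 0.05 with a common FPKM sum per library (0.0371), a minimum of 5 FPKM (0.0489), library weights (0.0290), a block on the library number (0.0312), without treated SMA library 2 (0.0312) and without SMA library 2 in both treatments (0.0480). The call of Srsf12 therefore depends on the processing, while its sign was negative in all 24. With same-numbered libraries averaged first, its adjusted p was 0.222.

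Hnrnpa2b1 was at 0.23 ± 0.07 in this average (16.9% higher, limma adjusted p = 0.0914, 0.0551 to 0.294 over the alternatives) and Hnrnpl at 0.20 ± 0.07 (limma adjusted p = 0.125, 0.0240 to 0.335). Hnrnpl passed under library weights alone. Srsf1 and Srsf10 were both at 0.20, with limma adjusted p-values of 0.165 and 0.200. The difference of Srsf4 was -0.11 and that of Hnrnpf -0.14. With each library scaled to a common FPKM sum, the median over the 31 genes in this average shrank to 0.02 and in the treated cultures it became -0.08, with 7 of 31 higher, where the median of all genes was -0.08 and -0.09.

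**Figure D4:**
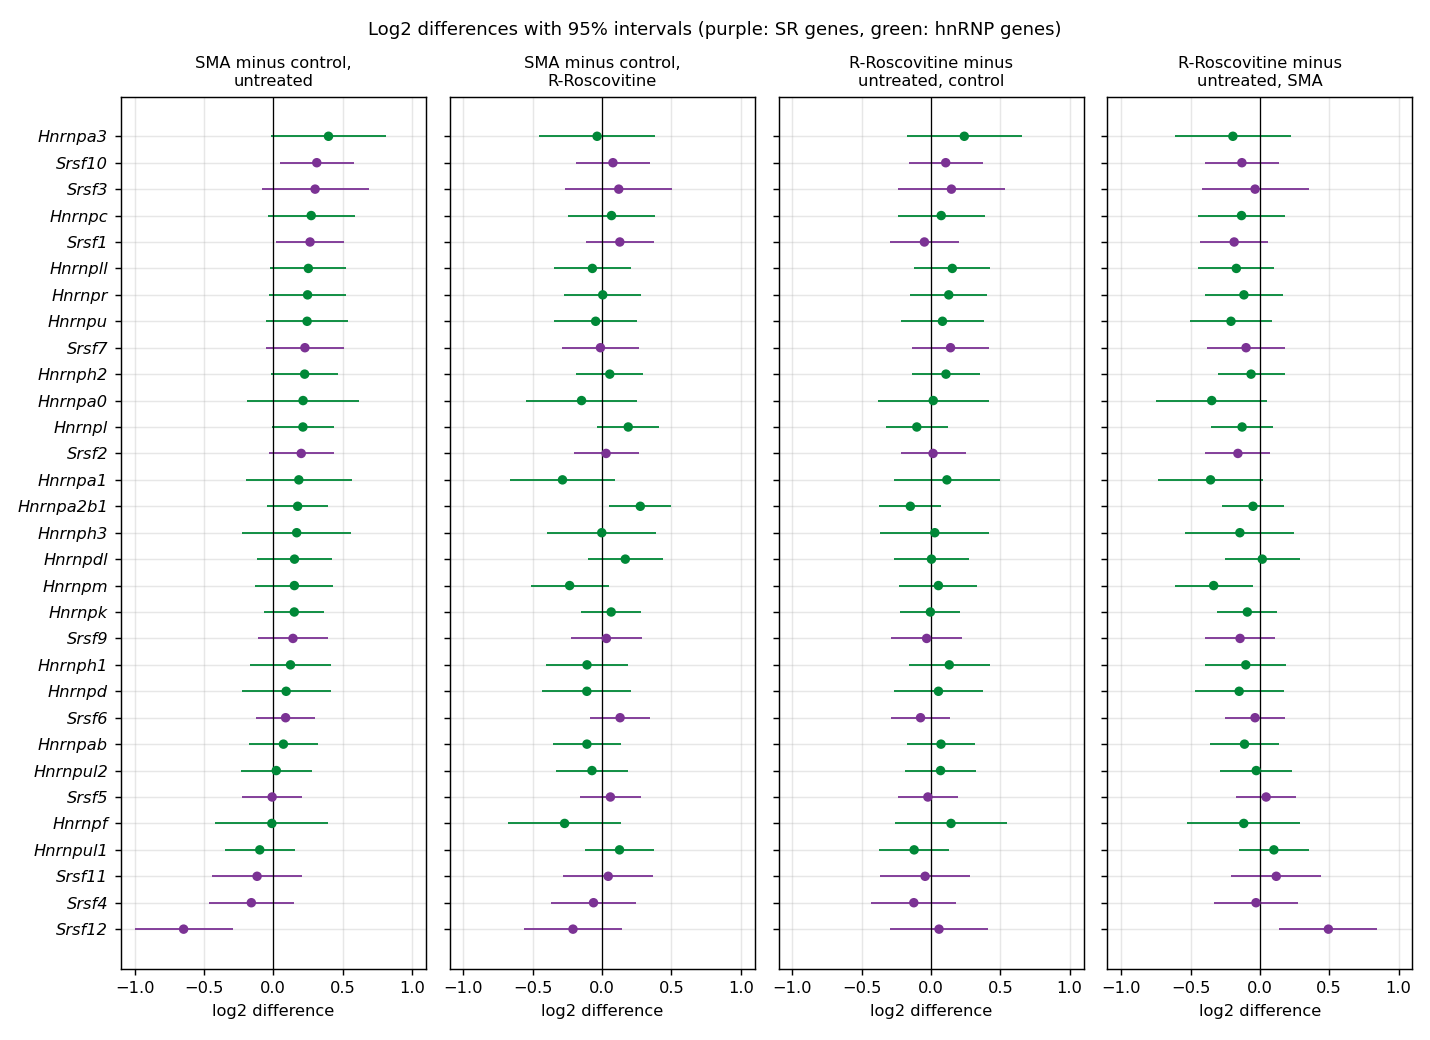
Log2 differences of the 31 genes with 95% confidence intervals for the genotype comparison in untreated and treated cultures and for R-Roscovitine in control and SMA cultures, genes ordered by the first panel, SR genes in purple and hnRNP genes in green. In the first panel 25 of 31 points lie right of 0 and Srsf12 lies farthest left at -0.65, and in the last 26 of 31 lie left of 0 with Srsf12 farthest right at 0.49.

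R-Roscovitine was next compared with no treatment within each genotype. Both comparisons share their untreated libraries with the first genotype comparison: the untreated controls are the reference in one, and the untreated SMA libraries, in which 25 of 31 genes were higher, in the other. In control cultures 21 of 31 genes were higher with R-Roscovitine, with a median of 0.05 (50.8% of all genes were higher), and none passed the limma test, where 0% of all genes did. At an unadjusted p under 0.05 there were 0 of 31, where 1.25% of all genes reached it. On scaled values 1 gene, Srsf4, was lower without overlap and 0 were higher, against 2.30% and 1.97% of all genes. Srsf4, the largest classical SR protein, measured 31.8, 29.3 and 31.9 FPKM untreated and 28.4, 25.3 and 29.9 FPKM treated, and overlapped on this deposited scale. On the deposited FPKM, without scaling between libraries, 3 other genes were lower without overlap, Hnrnpa2b1, Hnrnpul1 and Srsf6.

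Without untreated control library 1 the median of the 31 genes in control cultures was -0.04 in place of 0.05, and without untreated control library 3 it was 0.13. The genes with the lowest p in control cultures were Hnrnpa3 at 0.24, Hnrnpll at 0.15 and Srsf7 at 0.14 on the higher side, and Hnrnpa2b1 at -0.15, Hnrnpul1 at -0.12 and Hnrnpl at -0.10 on the lower side. Without control library 1 in both treatments Hnrnpa3 was at -0.03 and Srsf7 at -0.03.

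In SMA cultures 26 of the 31 genes were lower with R-Roscovitine, 18 of 20 hnRNP and 8 of 11 SR genes, with a median of -0.12, while 50.4% of all genes were higher. Here too none passed the adjusted threshold (0% of all genes), and 2 of 31 had an unadjusted limma p under 0.05, Srsf12 and Hnrnpm, against 2.41% of all genes. The median stayed between -0.15 and -0.08 in all 24 alternative settings.

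Srsf12 was higher with R-Roscovitine in SMA cultures. It went from 13.5 to 21.3, from 16.0 to 25.5 and from 16.4 to 19.3 FPKM in the libraries numbered 1, 2 and 3. All treated libraries lay above all untreated ones, at 0.49 ± 0.16 on the log2 scale (40.8% higher) with a limma adjusted p of 0.999, between 0.616 and 1 over the alternatives. It was the only gene of the 31 higher without overlap, where 5.94% of all genes were. In control cultures the same pairs went from 30.3 to 32.7, from 22.0 to 21.7 and from 23.9 to 24.1 FPKM, and the difference was 0.06 ± 0.16.

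Lower without overlap in treated SMA cultures were 6 of 31 genes, Hnrnpa0, Hnrnpa1, Hnrnpab, Hnrnpm, Hnrnpu and Srsf10, where 4.90% of all genes were. On the deposited FPKM Hnrnpc was a further one. Hnrnpm went from 141.1, 133.8 and 116.5 FPKM untreated to 100.7, 99.997 and 108.5 FPKM treated, at -0.33 ± 0.13 with a limma adjusted p of 0.999. Hnrnpa1 went from 70.3, 68.5 and 65.6 FPKM to 50.3, 48.6 and 60.9 FPKM, at -0.36 ± 0.18; with its copies added it was at -0.25 ± 0.13. Hnrnpa0 was at -0.35. On the higher side after Srsf12 came Hnrnpul1 at 0.10 and Srsf11 at 0.12, and Srsf11 was at -0.04 without untreated SMA library 1.

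Hnrnpu measured 122.8, 116.6 and 111.9 FPKM in untreated and 98.8, 95.9 and 109.2 FPKM in treated SMA cultures. Srsf10 went from 88.2, 96.0 and 88.5 FPKM to 80.6, 84.6 and 83.6 FPKM. Srsf1 went from 114.5, 120.1 and 107.1 FPKM to 95.7, 91.3 and 114.2 FPKM, the third library being higher, so that its groups overlapped at -0.19 ± 0.11. Among the marker lists, 10 of 10 pan-neuronal genes were higher in treated than in untreated SMA cultures (median 0.34). Of these 5 did not overlap, where 5.94% of all genes were higher without overlap. Lower were 9 of 10 progenitor genes (median -0.12), 8 of 10 proliferation genes (median -0.11) and 6 of 9 astroglial genes (median -0.13). Of the proliferation genes 4 were lower without overlap, where 4.90% of all genes were. Control cultures moved the same way, with 9 of 10 pan-neuronal genes higher (median 0.10). There 8 of 10 progenitor genes (-0.09), 8 of 10 proliferation genes (-0.04) and 6 of 9 astroglial genes (-0.10) were lower. The part of these lists in the SR and hnRNP differences was not tested.

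**Figure D5:**
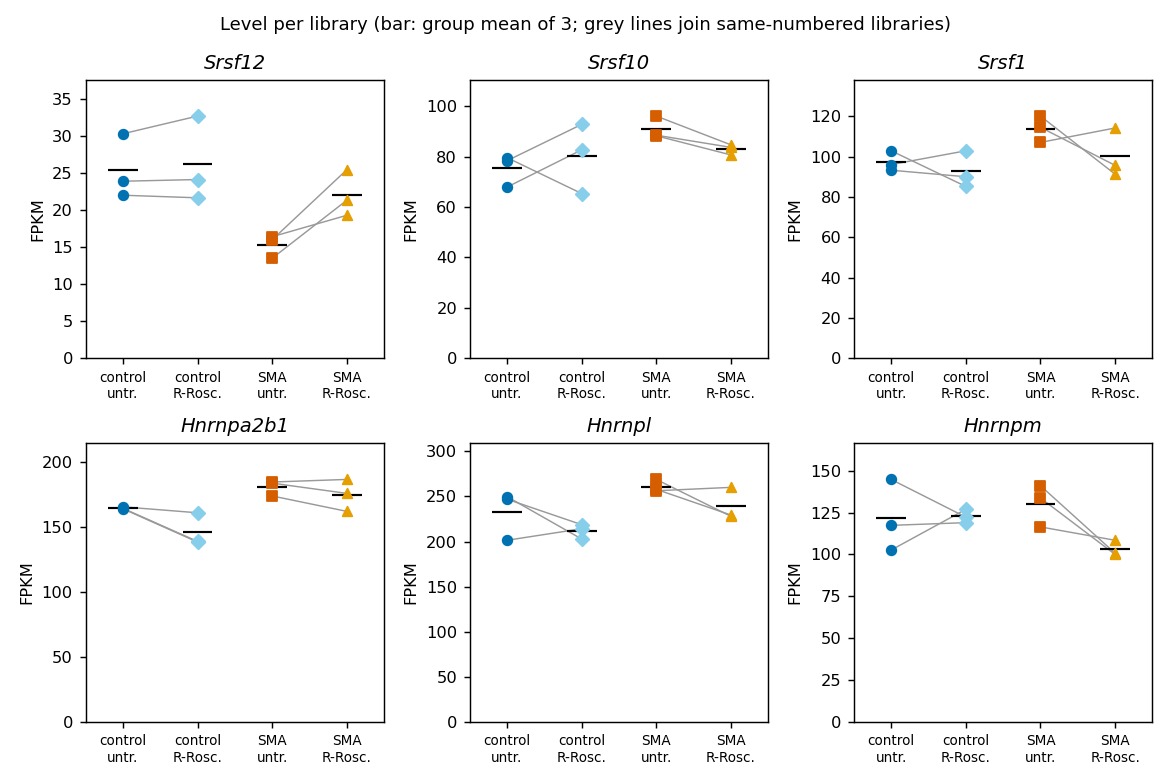
FPKM in each library for Srsf12, Srsf10, Srsf1, Hnrnpa2b1, Hnrnpl and Hnrnpm by genotype and treatment, with bars at the mean of 3 libraries and grey lines joining libraries of one number. Untreated SMA libraries of Srsf12 (13.5 to 16.4 FPKM) lie below every other library of that gene, and those of Hnrnpm in treated SMA cultures (99.997 to 108.5 FPKM) lie below the untreated SMA ones.

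Whether the effect of R-Roscovitine differed between the genotypes was tested directly as the interaction, which uses all 4 groups. None of the 31 genes passed (0% of all genes), and 0 of 31 had an unadjusted limma p under 0.05, against 1.91% of all genes. The median was -0.17, with 8 of 31 genes positive, against 51.5% of all genes; without untreated control library 1 the median was -0.09, and without control library 1 in both treatments -0.05. Srsf12 had the most positive value, 0.44 ± 0.23, with a 95% interval from -0.06 to 0.94 and a limma adjusted p of 0.9999. Positive values were also seen for Hnrnpul1 at 0.22 and Srsf11 at 0.16. Hnrnpa1 at -0.47 ± 0.25, Hnrnpm at -0.39 ± 0.18 and Hnrnpll at -0.32 had the lowest p among the negative values. Where same-numbered libraries were paired within each genotype, the same value of Srsf12 had an SE of 0.16, an unadjusted p of 0.0221 and a limma adjusted p of 0.813. Without treated control library 1 it was 0.60 (unadjusted p = 0.0153), and without control library 1 in both treatments 0.48 (unadjusted p = 0.0275). Its adjusted p over all limma settings lay between 0.763 and 1.

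Averaged over both genotypes, R-Roscovitine left 12 of 31 genes higher, with a median of -0.02 (-0.07 without untreated control library 1, 0.003 without treated control library 2), against 51.8% of all genes. None passed (0% of all genes), and 1 of 31 had an unadjusted limma p under 0.05, Srsf12 at 0.28 ± 0.12, against 1.63% of all genes. Srsf3 at 0.06 and Srsf11 at 0.04 followed on the higher side, and Hnrnpl at -0.12, Hnrnpm at -0.14 and Srsf1 at -0.12 on the lower side. Srsf3 was at -0.07 without untreated control library 1. The 95% intervals of the 31 genes in this average reached at most 0.53 log2 units from 0, so larger differences lie outside all of them. In the comparisons within one genotype or one treatment they reached up to 0.999.

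By hnRNP family, in untreated cultures the 5 A/B genes (Hnrnpa0, Hnrnpa1, Hnrnpa2b1, Hnrnpa3, Hnrnpab) were all higher in SMA, with a median of 0.18, and so were the 6 of the C, K, L, M and R groups, with a median of 0.23. Of the 4 F/H genes 3 were higher, with a median of 0.15, of the 3 U genes 2, with a median of 0.02, and both D genes, with a median of 0.12. In treated cultures 1 of 5 A/B genes was higher in SMA (median -0.11), 1 of 4 F/H genes (-0.06), 4 of 6 of the C, K, L, M and R groups (0.03), 1 of 3 U genes (-0.05) and 1 of 2 D genes (0.03). Differences between the families were not tested. With R-Roscovitine in SMA cultures all 5 A/B genes were lower (median -0.20), all 4 F/H genes (-0.11) and all 6 of the C, K, L, M and R groups (-0.13), while 1 of 3 U genes (median -0.03) and 1 of 2 D genes (-0.07) were higher. None of these genes passed the test. The 12 genes with near-identical copies had a median of 0.21 in the untreated genotype comparison and the 19 without a copy 0.14; with the copies' FPKM added the median of the 12 was again 0.21.

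Genes that act on or beside these factors were taken from 4 lists. Of 12 tested kinases and nuclear importers of SR proteins, none passed in the averaged genotype comparison or the averaged treatment comparison, and 3 of 12 were higher in SMA cultures (median -0.08). Dyrk1a, a kinase of SR proteins, was at -0.18 ± 0.08, with 33.3 to 37.8 FPKM in untreated controls and 30.5 to 32.4 FPKM in untreated SMA cultures. In treated cultures the groups of Dyrk1a overlapped, at 33.5 to 38.3 FPKM in controls and 28.7 to 34.5 FPKM in SMA. Tnpo1, the transportin that imports hnRNP A1, was at 0.23 ± 0.11. With R-Roscovitine, Tnpo3, the importer of SR proteins, was at -0.08 and the kinase Clk1 at 0.10. Of 29 SR-related factors none passed either, with 12 higher in SMA (median -0.02). Rnps1, of the exon junction complex, was at -0.21 and Srrm2, a spliceosome scaffold, at -0.22; with R-Roscovitine Luc7l was at 0.14 and Scaf1 at 0.16.

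Of 21 other hnRNP-like genes 11 were higher in the averaged genotype comparison (median 0.00) and 1 passed. Pcbp3, a poly(C)-binding protein related to hnRNP K, was lower, at -0.49 ± 0.13 with a limma adjusted p of 0.0433. It measured 39.3 to 48.8 FPKM in untreated controls and 21.8 to 30.6 FPKM in untreated SMA cultures. In treated cultures the groups of Pcbp3 overlapped, at 39.9 to 44.4 FPKM in controls and 27.0 to 44.7 FPKM in SMA. Fubp3 was at 0.29 ± 0.10 without passing. With R-Roscovitine Nono, a paraspeckle protein, was at -0.12, and none of the 21 passed.

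Of 25 neural splicing regulators 6 were higher in SMA in the averaged comparison (median -0.11), 1 passing upwards and 1 downwards. Qk, a regulator of glial and progenitor RNA, was higher, at 0.74 ± 0.15 with a limma adjusted p of 0.0241. It measured 54.5 to 86.7 FPKM in untreated controls and 98.9 to 128.3 FPKM in untreated SMA cultures. In treated cultures the groups of Qk overlapped, at 58.9 to 83.7 FPKM in controls and 77.9 to 120.3 FPKM in SMA. Celf6, a neuronal member of the CELF family, was lower, at -0.61 ± 0.16 with a limma adjusted p of 0.0458. It measured 9.11 to 14.1 FPKM in untreated controls and 6.97 to 7.81 FPKM in untreated SMA cultures. In treated cultures the groups of Celf6 did not overlap, at 11.6 to 16.7 FPKM in controls and 5.17 to 10.3 FPKM in SMA. With R-Roscovitine 20 of the 25 were higher (median 0.15) and none passed; Elavl4, a neuronal RNA stabiliser, was at 0.27 and Rbfox1 at 0.25. These 3 calls treat treated and untreated libraries of one number as independent. With 1 mean per genotype and number, which respects that pairing, none of them passed in limma: the adjusted p was 0.179 for Qk, 0.189 for Pcbp3 and 0.193 for Celf6. In 23 alternative settings Qk passed in 14, Pcbp3 in 10 and Celf6 in 8, each keeping its sign. On leaving out each of the 12 libraries in turn Qk passed in 6, Pcbp3 in 2 and Celf6 in 2, and the limma adjusted p of the others reached at most 0.122. The astroglial and neuronal marker lists given above moved with the genotype as well, and their part in these calls was not tested. Rbfox3, Elavl3 and Elavl4 belong to both the neural splicing list and the pan-neuronal list, so these lists are not independent.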

How the data were processed

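The authors deposited FPKM per gene for each of 12 libraries, with an interval and a status. Per the submitters' processing notes, the build was GRCm38 and the tools included Cufflinks 2.2.1, Trim Galore 0.4.0 and FastQC 0.10.1. Per the labels' protocols, RNA was total RNA and libraries were made with a Lexogen kit. Aligner settings, strand and depth were not given in the sources used here, so no count model was used.

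FPKM on 19 repeated identifiers were summed, and coordinates are 1-based. Genes at 1 FPKM or more in 3 libraries or more were tested, without 132 small RNA genes (14982 genes; all 31 SR and hnRNP genes). Values were scaled by median-of-ratios factors, as log2(FPKM + 1), and fitted with limma 3.58.1 (R 4.3.3) with group means over all 12 libraries and a mean-variance trend. P-values were adjusted over all tested genes by Benjamini-Hochberg, threshold 0.05. "Without overlap" means that all 3 libraries of a group lay beyond all 3 of the other. The fit was tested on simulated data.

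Named with values were all 31 genes by level, those tied to SMN2 exon 7 or SMN, the 3 lowest unadjusted p in each direction per comparison, the extremes of level and variation, and the 2 lowest p per other list. One gene that this rule names is not reported here. The genes and lists were chosen with earlier results of these data known. The marker lists also covered motoneurons, proliferation, oligodendrocytes, fibroblasts, endothelium and macrophages; their values stand in the closing section. Near copies were sought with BLAST 2.17.0. Over all tested genes, same-numbered treated and untreated libraries of one genotype deviated together (r = 0.24 to 0.60 in 6 pairs), so the numbers pair them. Over the 31 genes alone r was -0.16, 0.18 and 0.11 for control libraries 1, 2 and 3. For SMA libraries 1, 2 and 3 it was 0.72, 0.57 and -0.19. A block on the number within genotype changed no call between treatments or in the interaction. With 1 mean per genotype and number, 1 gene was called between genotypes in place of 723. Alternatives were scalings, filters, pseudocount, weights, blocks and leaving libraries out. Adding the copies' FPKM, which takes no account of their differing lengths, was chosen after seeing the data.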

Additional observations from a re-analysis of the deposited data

How the results depend on the processing

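In 42 values of named genes, 25 alternatives left the direction and side of the threshold in 979 cases, brought 8 past the threshold and reversed 9. Numbers of all genes called in the averaged genotype comparison (723) ranged from 6 to 1363 on leaving out 1 library, and were 1 with a filter above 0 or with paired means, 2017 with library weights, 1249 without SMA library 2 and 64 without control library 1 in both treatments. In untreated cultures (1 gene) they were 458 with weights, 142 without SMA library 2, 2 without control library 1 and 1 to 4 on leaving out 1 library; in treated cultures (1 gene) 4 with a common FPKM sum, 15, 264, 2 and 1 to 228. The interaction gave 1 gene with the filter above 0. Of the 31 genes, 1 passed in the averaged comparison with a common sum, with 5 FPKM, or without SMA library 2, 2 with weights, and 0 to 1 on leaving out 1 library; 1 passed in untreated cultures with weights. The medians of the 31 genes were -0.078 (treated) and 0.016 (average) with a common sum; for R-Roscovitine in controls -0.036 to 0.13 on leaving out 1 library and -0.033 without control library 1 in both treatments; for the interaction -0.23 to -0.087 and -0.054. Reversed were Hnrnpl in controls under weights (0.0076), Hnrnpa3 (-0.030) and Srsf7 (-0.026) in controls without control library 1, Srsf3 in the averaged treatment under weights (-0.014), without untreated control library 1 (-0.071; 0.131 at most on leaving out 1 library) and without control library 1 in both (-0.074), and Srsf11, on leaving out 1 library, in SMA (-0.038 to 0.225, lowest without untreated SMA library 1) and in the average (-0.040 to 0.091; -0.019 without treated SMA library 2). The cause was not tested.

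Across genotypes, same-numbered libraries had r from -0.06 to 0.32 in 12 pairs, 10 above 0 and 7 above 0.1, and were not treated as paired because not every r passed 0.1. A library correlated best with its own number in 19 of 24 cases, a hint from the data and not from the labels. Each case chose among 3 libraries, and each pair counts from both sides, so the cases are not independent. A replicate block over all libraries gave 327, 252 and 1772 genes in the untreated, treated and averaged genotype comparisons, and 1 of the 31, Srsf12, in the average. Depth per library is unknown, and 3 libraries a group limit what can be detected.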

Other observations

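Marker lists beyond those beside the results gave these values in untreated cultures, as ranges of summed FPKM in control and SMA libraries. Motoneuron genes summed to 11.8 to 23.1 and 6.92 to 9.30 FPKM, proliferation genes to 751 to 955 and 818 to 956 FPKM, and oligodendrocyte lineage genes to 10.3 to 15.5 and 18.3 to 60.5 FPKM. Neural progenitor genes summed to 3099 to 3449 and 2162 to 3528 FPKM, fibroblast genes to 13.8 to 87.7 and 12.4 to 26.7 FPKM, endothelial genes to 2.40 to 4.32 and 3.94 to 7.43 FPKM, and macrophage genes to 5.27 to 6.08 and 3.84 to 5.48 FPKM. The progenitor sum overlapped although 8 of its 10 genes were higher in SMA. Vim, one of the 10, weighed most in that sum, at 1852 to 3278 FPKM over the 12 libraries.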
